A study of Homo sapiens with 4 samples.

Results

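The miR-200 family comprises miR-200a, miR-200b, miR-200c, miR-141 and miR-429, and each of the 5 has its own human match probe among the 455 human match probes of the array. The 5 probes were taken by name, each with the copy of it that carries 2 mismatched bases. The RNA came from LNCaP prostate cancer cells given the synthetic androgen R1881 at 0, 0.1, 1 or 10 nM, with 1 array per dose. Per the labels, all cells were first kept without androgen for 24 hours in 10% charcoal-stripped serum. At least 1 array detected 4 of the 5 members, and every array detected 3, against 80 and 40 of the 455 human miRNAs. MiR-429 was not detected on any array.

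The family is best known for holding epithelial cells in their epithelial state. Its members bind the mRNAs of ZEB1 and ZEB2, transcription factors that repress E-cadherin, and ZEB proteins in turn repress the family's genes, so that each side holds the other down. In carcinomas of several organs, loss of the family goes with a change towards a mesenchymal state. The members come from a pair of primary transcripts, and a miRNA finds its targets mainly through its seed, the bases from position 2 to position 8, of which the family has 2 versions.

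The mature sequences below, from RefSeq with assembly GRCh38.p14, are shown because the comparison of clusters and of seeds rests on them; all 5 names were matched, and the bases in capitals are the seed.
miR-200a: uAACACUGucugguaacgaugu
miR-141: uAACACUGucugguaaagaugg
miR-200b: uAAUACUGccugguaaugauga
miR-200c: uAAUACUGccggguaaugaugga
miR-429: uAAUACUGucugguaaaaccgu

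MiR-200a and miR-141 share the seed AACACUG, and miR-200b, miR-200c and miR-429 share AAUACUG. Among 2370 human mature miRNAs of the same RefSeq table, no others carry either seed. The seeds differ by 1 base, written C4U from miR-200a to miR-200b with positions counted from 1 at the 5′ end. Their matching target sites in DNA letters are CAGTGTT and CAGTATT. In that assembly miR-200b lies at chr1:1167160-1167181, miR-200a at chr1:1167916-1167937 and miR-429 at chr1:1169055-1169076, all on the plus strand and within 1917 bases from the first to the last mature sequence. MiR-200c lies at chr12:6963742-6963764 and miR-141 at chr12:6964155-6964176, on the plus strand and within 435 bases. The files name no genome build, so these positions come from the reference alone. Seed and cluster cross among the 4 detected members, since each cluster holds 1 detected member of each seed.

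The closest pairs share a seed and lie on different chromosomes. MiR-141 differs from miR-200a at 2 of 22 bases, C17A and U22G. MiR-200c differs from miR-200b at 2 of the 22 bases they share, U11G and A22G, and is 1 base longer. MiR-200a and miR-200b, of different seeds, differ at 4 bases, and miR-429 differs from the other members at 5 to 7, its own seed group included. How far a probe takes up its closest relative was not tested. The mismatch probes, each 2 bases off, had net signals of -19.5 to 25.25 for miR-200a, 43 to 79.25 for miR-200b and 25 to 101.75 for miR-200c. Those of miR-429 ran from -40.25 to 37 and those of miR-141 from 11.25 to 16, with no value at 0.1 nM. None was detected, and where the mismatches lie is not given in the sources used here.

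The RNA came from LNCaP cells, an established line of human prostate adenocarcinoma cells with an androgen receptor. Per the labels, androgen was first withdrawn from all cells for 24 hours by growth in 10% charcoal-stripped serum. R1881, a synthetic androgen, was then added at 0, 0.1, 1 or 10 nM; the length of this exposure is not given in the sources used here. There is 1 array per dose, hybridised with Cy3-labelled total RNA, so the error of a difference between arrays is unknown. The 3 doses also share the single untreated array. The arrays differed in overall signal: the 40 miRNAs detected on all of them had, as a median, 0.651, 0.985 and 0.999 of their untreated net signal at 0.1, 1 and 10 nM. Net signal is the probe's intensity minus the array's median mismatch intensity. The threshold of detection lies 3 scaled median absolute deviations over the median of an array's mismatch probes, which is a net signal of 139 to 151.

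Other epithelial miRNAs and miRNAs of other cell types were compared as a check of the label. Of 6 epithelial miRNAs, miR-203 was detected on all 4 arrays and miR-182 on all but that at 0.1 nM. MiR-205, known from basal epithelium, was not detected, with net signals between -3.75 and 18.75, nor were miR-375, miR-183 and miR-96. The summed net signal of the 6 was 943.75 in untreated cells and 728.25, 982 and 988 at 0.1, 1 and 10 nM. Of 13 miRNAs of mesenchymal, endothelial or blood cells, 0 were detected in untreated cells or at 0.1 and 1 nM, and 1, miR-214, at 10 nM, with summed net signals of -284.5, 55.25, -11.25 and 408.25. The part of miR-214 or of overall signal in the values below was not tested.

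MiR-200a had net signals of 2075.5 in untreated cells and 569, 1494.5 and 1359 at 0.1, 1 and 10 nM. Every treated array was lower than the untreated one, and the array at 0.1 nM was the lowest by far. The mismatch probe of miR-200a stayed near background, at -14.5, -19.5, -16.75 and 25.25, so the match probe read 6.85, 2.75, 6.42 and 5.37 times the intensity of its mismatch probe. Ranked by net signal relative to untreated among the 40 miRNAs detected throughout, miR-200a had 1 miRNA below it at 0.1 nM, 4 at 1 nM and 4 at 10 nM. Such a rank does not depend on how the arrays are scaled to each other. The untreated array had the highest net signal of all 4 for miR-200a, miR-200b and miR-200c, as it had for 47.5% of the 40 miRNAs, and the 0.1 nM array had the lowest for all 3, as for 72.5% of the 40.

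MiR-200b, its neighbour on chromosome 1, had net signals of 992.5, 654, 964.25 and 956.25 in the same order of doses. It was low at 0.1 nM and nearly level elsewhere. Relative to untreated, its net signal was 0.659, 0.972 and 0.963, close to the medians of the 40 miRNAs, and it had 20, 17 and 17 of them below it. Its mismatch probe read 43, 54, 79.25 and 76.75.

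MiR-429, the third member on chromosome 1, had net signals of 83.75, 54.5, 58.5 and 78.25. All 4 lie under the detection threshold, so no fold is given for it. Its mismatch probe read 4.5, 37, -2.25 and -40.25. The mouse probe of miR-429 was not detected either, at 24.5, 68, 21.25 and 36. The probe of miR-200a*, the opposite strand of the miR-200a hairpin, was likewise under the threshold, at 61, 32.25, 2.75 and 21.75.

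MiR-200c, on chromosome 12, had net signals of 1374.5, 1271.25, 1294.75 and 1302. It varied least of the 4 detected members, with treated arrays at 0.925, 0.942 and 0.947 of the untreated one. At 0.1 nM, where the median miRNA stood at 0.651, 33 of the 40 miRNAs had a lower relative net signal than miR-200c and 6 a higher one. At 1 and 10 nM 15 of the 40 lay below it. Its mismatch probe read 25, 54.5, 90.25 and 101.75.

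MiR-141, its neighbour, was much closer to background, at 243.5, 120.5, 269 and 308.5. The array at 0.1 nM did not detect it, and that at 10 nM was the highest. Its match probe read 1.59, 1.84 and 1.99 times its mismatch probe at 0, 1 and 10 nM, and at 0.1 nM the mismatch probe was listed at 0 and treated as missing. At 0.1 nM its level is therefore known only as a bound.

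**Figure D1:**
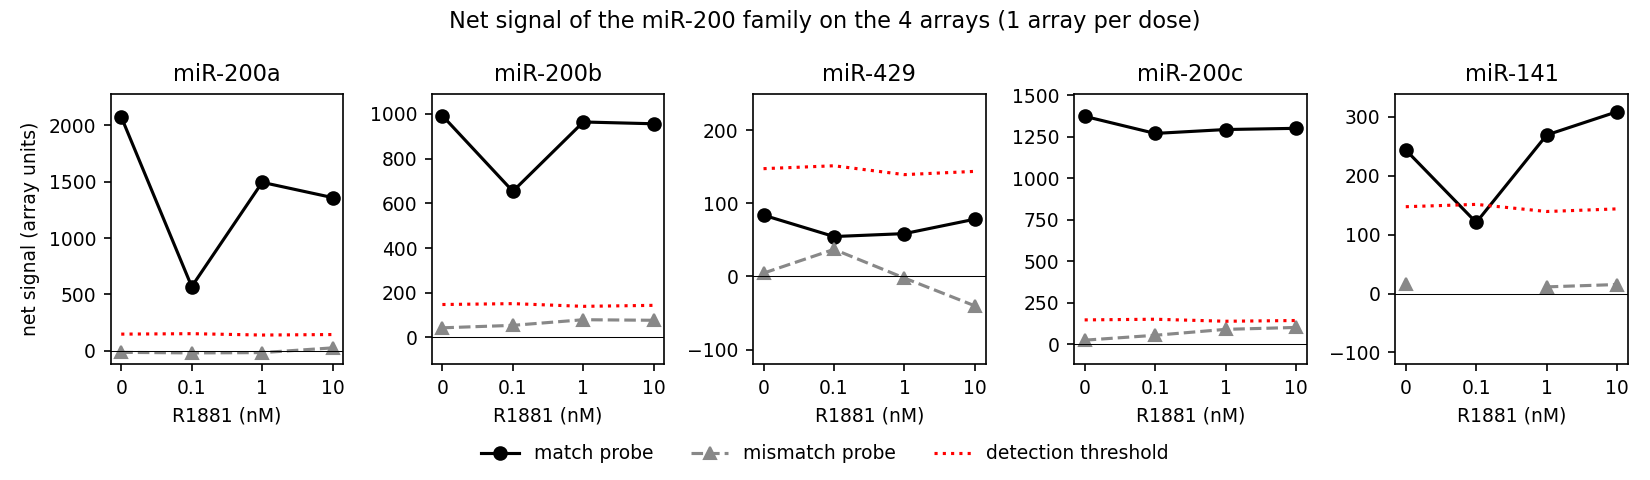
Net signal (array units, linear axis, scale differing between panels) of each member's match probe (black circles) and mismatch probe (grey triangles) at 0, 0.1, 1 and 10 nM R1881, with the detection threshold as a dotted red line and 1 array per dose. MiR-200a lies at 2075.5 untreated and at 569 at 0.1 nM, miR-200c between 1271.25 and 1374.5, and miR-429 under the threshold on every array.

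Normalised values add the correction for overall signal. Intensities were background corrected and quantile normalised, which gives the arrays a common distribution, and log2 ratios to the untreated array were taken. As a yardstick of probe error, 33 pairs of ratios from human and rodent probes of the same miRNA name differed by a median of 0.39, 0.15 and 0.26 on the log2 scale at 0.1, 1 and 10 nM. These pairs share their arrays and cover neither culture nor array error.

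At 0.1 nM the family was spread widely. The log2 ratio was -0.65 for miR-200a, 0.07 for miR-200b and 0.67 for miR-200c. MiR-141, not detected on that array, was at least 1.06-fold lower, with a log2 ratio of -0.48 as computed. Thus 1 of the 4 detected members was 1.5-fold or more lower and 1 was 1.5-fold or more higher, where 15.4% and 10.8% of the 65 miRNAs measured at that dose were. No member reached 2-fold, which 7.69% of the 65 did; miR-200a did so with median centring, at -1.08, without normalisation, at -1.73, and in the authors' value table, at -1.87. The family median was -0.20 over 4 members and 0.07 over the 3 detected on all arrays, against 0.04 over all 65, and 2 of the 4 were below 0, as were 41.5% of the 65. The ratios of miR-200b and miR-200c depend on the scaling: without normalisation they were -0.57 and -0.13, and in the authors' value table -0.60 and -0.11. The 65 miRNAs then had a median of -0.53 without normalisation.

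At 1 nM the log2 ratios were -0.10 for miR-200a, -0.27 for miR-200b, -0.14 for miR-200c and 0.05 for miR-141. Of the 4, 3 were below 0, beside 51.5% of all miRNAs measured. None reached 1.5-fold, as did 9.09% of 66 miRNAs in either direction. The family median was -0.12 and that of all miRNAs -0.04. The value of miR-200a depends on the normalisation: it was -0.45 without any and -0.47 in the authors' value table, where all miRNAs had medians of -0.04 and -0.02, and -0.68 with median centring, where their median was -0.26.

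At 10 nM the values were -0.58 for miR-200a, -0.33 for miR-200b, -0.29 for miR-200c and 0.05 for miR-141. None was past 1.5-fold, a size that 21.5% of 79 miRNAs reached (8.86% lower), or past 2-fold, which 5.06% reached. MiR-200a lay just inside 1.5-fold, with 7 of the 79 below it. The family median was -0.31 against 0.00 for all 79, while the 40 miRNAs detected on all arrays had a median of -0.15. That family median depends on the normalisation. It was -0.074 without any and -0.066 in the authors' value table, where all miRNAs measured had medians of 0.16 and 0.07. MiR-200b was then at -0.06 and -0.05 and miR-200c at -0.08 in both, while miR-200a stayed at -0.58 and -0.61. Of the 4 members, 3 were below 0, beside 49.4% of the miRNAs measured. Those 79 were detected on either array. The 10 nM array detected 74 human miRNAs and 16 mismatch probes, the untreated one 62 and 4. MiRNAs detected at 10 nM alone entered through a high value there, so shares of the 79 are not a like comparison for members detected on all arrays. The direct comparison of 10 with 1 nM, which does not use the untreated array, gave -0.48, -0.06, -0.15 and 0.00 for miR-200a, miR-200b, miR-200c and miR-141. That of miR-200a was -0.05 with median centring.

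**Figure D2:**
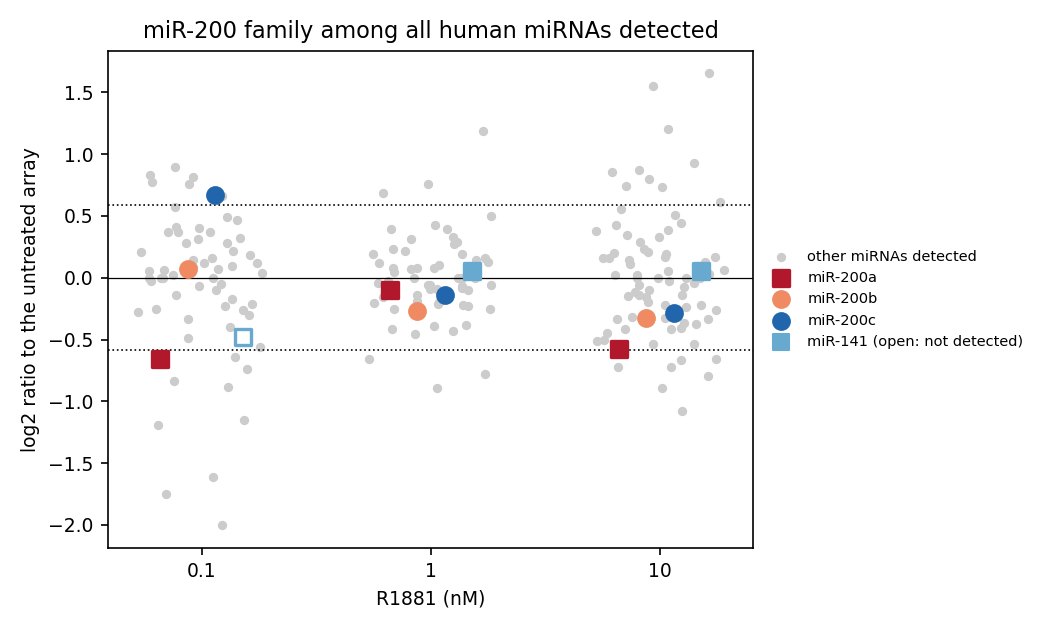
Log2 ratio to the untreated array after quantile normalisation (vertical axis) at 0.1, 1 and 10 nM R1881 (horizontal axis) for the 4 detected members, squares for the seed of miR-200a and circles for that of miR-200b, over all other human miRNAs detected on either array (grey), with dotted lines at 1.5-fold. At 0.1 nM miR-200c at 0.67 and miR-200a at -0.65 lie outside the lines, and at 1 nM the 4 lie between -0.27 and 0.05.

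Quantile normalisation reads ranks, and miR-200a is among the bright probes. Whether the spacing of ranks there shapes its values was not tested. Counted from the brightest of 785 match probes of all species, miR-200a held rank 12 in untreated cells and ranks 20, 13 and 18 at 0.1, 1 and 10 nM. MiR-200c held ranks 16, 10, 17 and 20. Dividing net signals by the median ratio of the 40 miRNAs instead placed miR-200a at log2 values of -1.25, -0.45 and -0.61 relative to that median. The same division gave 0.02, -0.02 and -0.05 for miR-200b and 0.51, -0.06 and -0.08 for miR-200c.

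**Figure D3:**
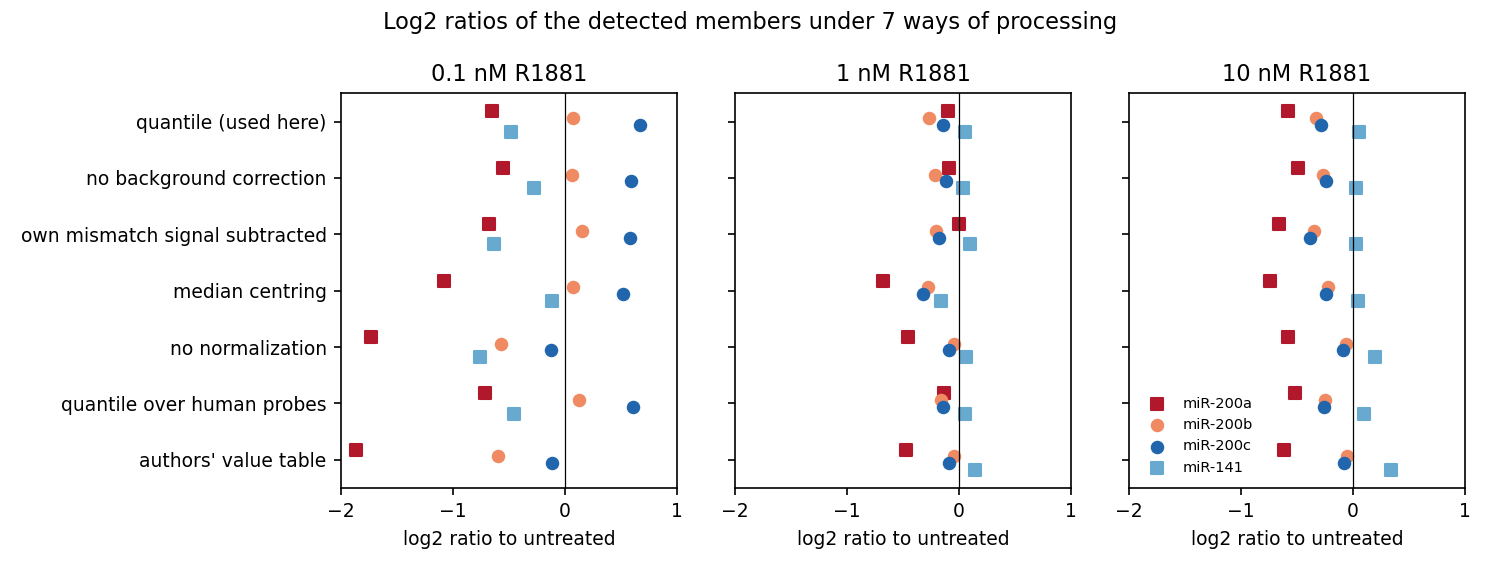
Log2 ratio to the untreated array (horizontal axis) of the 4 detected members under 7 ways of processing (rows), in 1 panel per dose; miR-141 has no value at 0.1 nM in the authors' value table. MiR-200a ranges from -1.87 to -0.55 at 0.1 nM, from -0.68 to 0.00 at 1 nM and from -0.74 to -0.49 at 10 nM, and miR-200c at 0.1 nM lies on either side of 0.

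Ratios between members on the same array need no scaling between arrays, and setting that ratio beside its untreated value compares 2 members directly. Within the chromosome 1 cluster, the net signal of miR-200a over that of miR-200b was 2.09 in untreated cells and 0.870, 1.55 and 1.42 at 0.1, 1 and 10 nM. That is 0.416, 0.741 and 0.680 of its untreated value. The same ratio of miR-200a to miR-200c was 1.51 in untreated cells and 0.448, 1.15 and 1.04 at the 3 doses. Relative to untreated cells, miR-200a was thus lower than both by net signal on each treated array, its neighbour in the cluster included. After quantile normalisation the difference of log2 ratios, miR-200a minus miR-200b, came to -0.73, 0.17 and -0.25 at 0.1, 1 and 10 nM. That of miR-200a minus miR-200c came to -1.33, 0.05 and -0.29. The sign of either difference at 1 nM thus depends on the normalisation.

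MiR-200b and miR-200c, of the same seed but of different clusters, kept nearly the same ratio of net signals at 0, 1 and 10 nM, at 0.722, 0.745 and 0.734. At 0.1 nM it was 0.514. In the chromosome 12 pair the net signal of miR-141 over that of miR-200c was 0.177 in untreated cells, 0.208 at 1 nM and 0.237 at 10 nM. That places miR-141 at 1.34 times its untreated standing relative to miR-200c at 10 nM, for a probe whose net signal was 308.5 against a threshold of 144. Relative to miR-200a, of the same seed, miR-141 stood at 1.93 times its untreated value at 10 nM.

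By cluster, the mean log2 ratios after quantile normalisation were -0.29 for miR-200a and miR-200b against 0.09 for miR-200c and miR-141 at 0.1 nM. They were -0.18 against -0.05 at 1 nM and -0.45 against -0.12 at 10 nM. The differences, chromosome 1 minus chromosome 12, were -0.38, -0.14 and -0.34. The value at 0.1 nM uses the ratio of miR-141, which that array did not detect. At 10 nM miR-200b minus miR-200c was -0.04 and miR-141 minus miR-200a was 0.63. The difference between clusters at that dose thus lies mostly between miR-200a and miR-141. Each cluster mean has 2 members, which are not replicates, and the difference has no test.

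By seed, the mean was -0.57 for miR-200a and miR-141 against 0.37 for miR-200b and miR-200c at 0.1 nM, a difference of -0.94. At 1 nM the means were -0.02 and -0.21, and at 10 nM -0.26 and -0.31, with differences of 0.18 and 0.04. The value at 0.1 nM rests on miR-200a as the single detected member of its seed, on an array where 26.2% of the 65 miRNAs stood 1.5-fold or more from untreated. The log2 ratio of miR-200a minus that of miR-200b or miR-200c was -0.73 or -1.33 there, and miR-200b minus miR-200c, which share a seed, was -0.60.

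**Figure D4:**
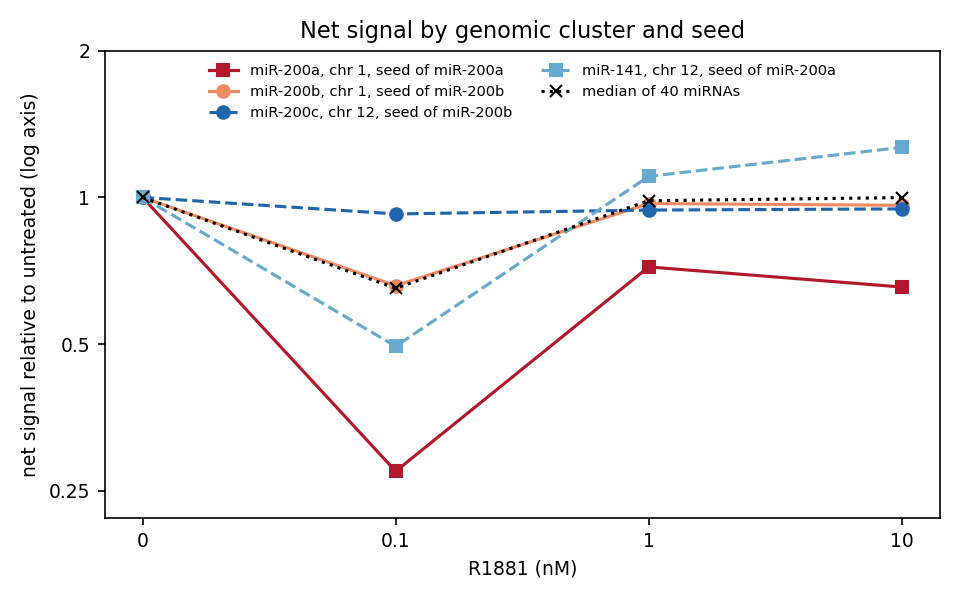
Net signal relative to the untreated array (log axis) against R1881 dose for the 4 detected members, solid lines for chromosome 1 and dashed for chromosome 12, squares for the seed of miR-200a and circles for that of miR-200b, with the median of the 40 miRNAs detected on all arrays as a dotted black line. MiR-200b follows that median, miR-200a lies below it at 0.274, 0.720 and 0.655, and miR-200c stays at 0.925 or above; the point of miR-141 at 0.1 nM is under the detection threshold.

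No member passed a model fitted across the 80 detected miRNAs. With limma, a straight line over the dose steps gave slopes per step of -0.12 ± 0.13 (SE) for miR-200a, -0.13 ± 0.07 for miR-200b, -0.17 ± 0.16 for miR-200c and 0.07 ± 0.12 for miR-141. Their adjusted p-values from limma lay between 0.514 and 0.898, and 0 of the 4 had an unadjusted p under 0.05, as did 8.75% of the 80 miRNAs. Of the 80, 0.0% passed after adjustment. Set against the untreated array, the mean of the 3 treated ones differed by -0.44 ± 0.31 for miR-200a, -0.17 ± 0.24 for miR-200b, 0.08 ± 0.49 for miR-200c and -0.13 ± 0.31 for miR-141, with a limma adjusted p of 0.963 for each. Of the 80, 0.0% passed that fit, and 0 had an unadjusted p under 0.05. With 2 residual degrees of freedom in either fit, the errors reflect scatter among doses and say nothing of scatter among cultures.

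Without the 0.1 nM array the slopes were -0.17 ± 0.07 for miR-200a, -0.11 ± 0.05 for miR-200b and -0.09 ± 0.05 for miR-200c and 0.02 ± 0.05 for miR-141, with limma adjusted p-values of 0.206, 0.206, 0.259 and 0.828. None of the 4 had an unadjusted p under 0.05 in that fit, which 25.0% of the 80 miRNAs had. Without the untreated array, the slopes over log10 of the dose were 0.037 ± 0.21 for miR-200a, -0.20 ± 0.09 for miR-200b, -0.48 ± 0.14 for miR-200c and 0.27 ± 0.12 for miR-141, with limma adjusted p-values of 0.917, 0.251, 0.166 and 0.251. In the comparison of treated and untreated cells without the 0.1 nM array, 2 arrays against 1, miR-200a was at -0.34 and miR-200b at -0.30. There miR-200c was at -0.22 and miR-141 at 0.05. The value of miR-200b depends on the normalisation: its net signal at 1 and 10 nM was 0.972 and 0.963 of untreated, where the median miRNA had 0.985 and 0.999. The fits of this paragraph leave fewer residual degrees of freedom than those with every array.

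The miRNAs whose 3 ratios lay nearest to each member's were found among the 37 miRNAs outside the family that were detected on all arrays, by the mean absolute difference of the log2 ratios. The values describe 3 ratios that share 1 array. MiR-125a was 0.05 and miR-103 0.09 from miR-200b. For miR-200c the nearest were let-7b and miR-210, both at 0.15, and for miR-200a miR-106b at 0.17 and miR-125b at 0.30. MiR-30c, at 0.18, and let-7a, at 0.20, were nearest to miR-141; let-7a kept its rank on every array, so its ratios are 0.00. Within the family the distances ran from 0.25 between miR-200b and miR-200c to 0.56 between miR-200c and miR-141.

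MiR-203, which like the family is abundant in epithelia, had net signals of 467.25, 344, 570.5 and 503.75 and log2 ratios of 0.31, 0.29 and -0.14. The mouse probe of miR-203 had net signals of 103, 35.25, 176.25 and 245.5 and was detected at 1 and 10 nM only. Its log2 ratios as computed were 0.38 and 0.46 at these doses, so the sign at 10 nM differs between the probes. The human probe of miR-203 was thus above 0 at 1 nM, where miR-200a, miR-200b and miR-200c had log2 ratios of -0.10, -0.27 and -0.14. By net signal miR-200b and miR-200c were at 0.972 and 0.942 of untreated there, near the median miRNA at 0.985. At 10 nM the log2 ratio of the human probe of miR-203 was below 0, as were those of miR-200a, miR-200b and miR-200c. Its net signal there was 1.08 of untreated, where the median miRNA had 0.999, so that sign depends on the normalisation. By net signal miR-200a, miR-200b and miR-200c were at 0.655, 0.963 and 0.947. At 0.1 nM the log2 ratio of the human probe was above 0, as were those of miR-200b and miR-200c but not miR-200a. MiR-182 had net signals of 198.25, 146, 199.25 and 174, of which that at 0.1 nM was not above the threshold, and log2 ratios of 0.04 and -0.32 at 1 and 10 nM.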

How the data were processed

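MicroRNAs were measured on 4 custom 1-colour CombiMatrix arrays, 1 per dose, each hybridised with 10 µg of Cy3-labelled total RNA per the labels. Per the file headers each of 1406 probes has a mean signal, a linear intensity that the authors averaged over spots; no background step is stated. In the value table the authors deposited, each intensity is reduced by the array's median mismatch signal and dim cells are blank. Intensities were corrected with normexp (offset 50, all probes), quantile normalisation was run on the match probes of every species, and log2 values were fitted with limma 3.58.1 (R 4.3.3, two-sided moderated test, Benjamini-Hochberg threshold of 0.05) over the 80 human miRNAs detected on at least 1 array. Probes listed at 0 (3 to 7 per array, counted over probes of every kind) were treated as missing in the background correction and in setting the detection threshold. Both fits were tested on simulated data. Alternatives were other background corrections and normalisations, the authors' value table, other detection and fold limits, other filters, and leaving out the 0.1 nM or the untreated array. With 1 array per dose, array number limits the precision. Named miRNAs are the 5 members, related probes, both marker lists, and the 2 nearest patterns per detected member. The members, lists and tests were chosen with earlier results of these data known.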

Additional observations from a re-analysis of the deposited data

How the results depend on the processing

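No paired analysis was possible because each dose has 1 array. With 1 array per dose, the 0 members passing limma under each alternative say nothing of stability. All 4 detection rules found 4 members on at least 1 array; 2 deviations in place of 3 detected miR-141 at 0.1 nM too, giving 4 on all arrays, and 5 lost it in untreated cells. Without normalisation and in the authors' value table, the family median at 0.1 nM was -0.67 and -0.60. All miRNAs measured had medians of -0.53 and -0.60, so the family median lay near that of the rest. In the authors' table these medians covered 3 members and 38 miRNAs. The members were spread around their median, with miR-200a at -1.73 and -1.87. MiR-200c was then -0.13 and -0.11, its sign turned, as was that of miR-200b, at -0.57 and -0.60. Over the 3 members detected on all arrays, a choice made after seeing the data, the family median at 0.1 nM after quantile normalisation was 0.074. The chromosome 1 minus chromosome 12 difference at 0.1 nM was -0.71 with median centring and without normalisation, and -1.12 in the authors' table, which has no miR-141 there. The seed difference was -1.51 at 0.1 nM in that table, and at 1 nM -0.12 with median centring and without normalisation and -0.10 in the table. At 10 nM it was -0.12 with median centring and without normalisation and -0.07 in the table, against 0.04 after quantile normalisation. Members 1.5-fold or more lower at 0.1 nM numbered 0 without background correction or at 2-fold, and 2 with own mismatch signals subtracted, without normalisation or in the authors' table; those higher numbered 0 under these last 3, with median centring and at 2-fold. Median centring gave 1 lower member at 1 nM, and at 10 nM 1 was lower with median centring, own mismatch subtraction or the authors' table. At 0.1 nM miR-200a alone reached 2-fold, with median centring, without normalisation and in the authors' table. Of 71 alternatives for the members' log2 ratios, 56 moved them by under 0.25, the median spread between probes of different species, and 5 turned their sign: the 4 above and miR-141 at 1 nM, at -0.16 with median centring. In the limma fits the slope of miR-200a turned to 0.037 over log10 dose without the untreated array and that of miR-200b to 0.033 without normalisation. Treated minus untreated, miR-200c turned to -0.013 with median centring, -0.10 without normalisation and -0.22 without the 0.1 nM array, where miR-141 turned to 0.052. Causes were not tested.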
